A study of Mus musculus with 16 samples.

Results

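The comparison described here asks which genes differ between Pdgfb ret/ret and Pdgfb ret/wt mice when both sampled brain regions are weighed equally. Each animal gave 1 cortex and 1 thalamus library, so its members were 8 animal averages made from all 16 libraries of the series, 4 of ret/ret and 4 of ret/wt mice. For every gene, the log2 CPM (counts scaled to a common library size, on a log scale) of an animal's cortex and thalamus libraries were averaged, and the 4 ret/ret averages were set against the 4 ret/wt averages. All mice were on the C57BL/6 strain background and 4 months old, and polyA-selected RNA was sequenced. The ret/wt controls also carried the retention allele, on 1 of their 2 copies of Pdgfb, and mice without the allele were not analysed here. In ret/ret brains the thalamus pieces were calcifications, found by their autofluorescence under a stereomicroscope and cut out, whereas ret/wt mice gave pieces of the matching region. The cortex, a region not prone to calcify, was taken from both genotypes. The average therefore holds 1 region in which the dissection differed with genotype and 1 in which the labels name no such difference.

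PDGF-B is a growth factor made by endothelial cells, and its retention motif holds the secreted protein close to the vessel, where it acts on the receptor PDGFRB of pericytes. Pericytes are mural cells wrapped around capillaries, and mice that lack the motif are known for a reduced pericyte coverage of brain vessels. Endothelial cells line the vessels, carry the transporters and junctions of the blood-brain barrier, and release endothelin-1, a peptide that contracts mural cells.

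Library totals ran from 13415391 to 29135064 counts, and mitochondrial genes took 3.22% to 12.1% of them. In the thalamus this share was 5.87% to 12.1% in ret/ret and 4.24% to 8.80% in ret/wt. In the cortex it was 4.29% to 7.045% in ret/ret and 3.22% to 8.43% in ret/wt. The part of this share in the genotype differences was not tested. Values built on 3 counts, which equal 0.103 to 0.224 CPM by library, mark the lower limit of detection. Summed over 14 cortex neuron genes, the cortex libraries held 1952 to 4314 CPM and the thalamus libraries 361 to 742 CPM, in the order of their labels. Markers of thalamus neurons ran from 982 to 5378 CPM in the thalamus and from 434 to 1107 CPM in the cortex, so the lowest thalamus library was below the highest cortex library. ret/wt replicate 3 and ret/ret replicate 2, 1 animal of each genotype, stood apart from the other animals: they alone had Y-linked genes at high levels, and their cortex libraries held 2365 and 5361 CPM of cerebellum genes against 162 to 250 CPM in the other 6. Their thalamus libraries stood apart too, with 5129 and 5378 CPM of thalamus neuron genes against 982 to 1808 CPM in the other 6. The cortex library of ret/wt replicate 4 held 1755 CPM of choroid plexus genes, against 206 to 437 CPM in the other cortex libraries.

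Across the 15286 genes tested, the endothelin-1 gene Edn1 rose and the pericyte gene Rgs5 fell in ret/ret mice, and these were the only genes that passed an adjusted p of 0.05 in limma. They made up 0.0131% of the genes tested, or 0.00654% in each direction. Without adjustment, 790 genes (5.17%) had a p under 0.05, of which 546 (3.57%) were higher and 244 (1.6%) lower in ret/ret. The 4 animal averages of 1 genotype all lay above those of the other for 526 genes (3.44%), with 348 higher and 178 lower in ret/ret. The median difference over all genes was -0.02 on the log2 scale, and 45.6% of genes had a positive one. Averaging narrowed the error: the median standard error of a gene was 0.21 for the average, 0.27 for the cortex alone and 0.29 for the thalamus alone. The labels give each animal its own letter, so the p-values measure the spread between animals.

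**Figure D1:**
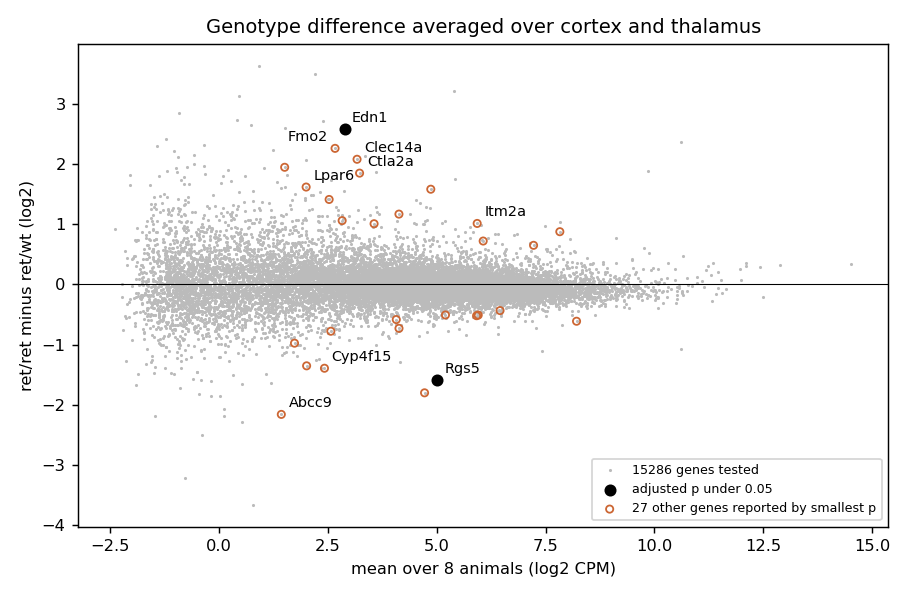
Difference between genotypes averaged over both regions (ret/ret minus ret/wt, log2, vertical axis) against the mean level over 8 animals (log2 CPM, horizontal axis) for 15286 genes. Black points are Edn1 and Rgs5, the 2 genes with an adjusted p under 0.05, and open circles are the other 27 genes reported by their p-value.

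Edn1 (ENSMUSG00000021367, chromosome 13, 42301476 to 42307990 on the plus strand of GRCm38) encodes the precursor of endothelin-1. Its animal averages were 1.39, 1.47, 1.78 and 1.76 log2 CPM in ret/wt replicates 1 to 4, and 4.73, 4.13, 3.90 and 3.93 log2 CPM in ret/ret replicates 1 to 4. The lowest ret/ret animal was more than 2 log2 units above the highest ret/wt animal, and ret/ret replicate 1 was the highest. In single libraries Edn1 ranged from 2.2 to 3.94 CPM in ret/wt and from 9.07 to 32.5 CPM in ret/ret, so all 8 libraries of ret/ret mice lay above all 8 of ret/wt mice. The difference was 2.57 ± 0.23 log2 units (SE, n = 4 and 4; 95% interval 2.08 to 3.07), with an adjusted p of 0.00428 in limma. It was 2.96 in the cortex and 2.19 in the thalamus, and the thalamus minus cortex difference of these effects was -0.77 with a 95% interval from -1.54 to 0.00 (limma, unadjusted p = 0.0507). Leaving out single animals gave averaged differences from 2.40 to 2.68, and the adjusted p of Edn1 over the alternatives on both regions ran from 9.11e-26 (DESeq2) to 0.108 (replicate block).

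Rgs5 (ENSMUSG00000026678, chromosome 1, 169655501 to 169695813 on the plus strand of GRCm38) encodes a regulator of G protein signalling and is a standard marker of brain pericytes. Its animal averages were 5.88, 6.05, 5.58 and 5.70 log2 CPM in ret/wt replicates 1 to 4, and 4.27, 4.03, 4.08 and 4.49 log2 CPM in ret/ret replicates 1 to 4. The genotypes did not overlap, and in either region the 4 ret/ret libraries were all below the 4 ret/wt libraries. In single libraries it ranged from 43.6 to 68.6 CPM in ret/wt and from 13.8 to 22.6 CPM in ret/ret. The difference was -1.58 ± 0.16 log2 units (SE, n = 4 and 4; 95% interval -1.93 to -1.24), with an adjusted p of 0.00722 in limma. It was -1.73 in the cortex and -1.44 in the thalamus, and these effects differed by 0.29 with a 95% interval from -0.28 to 0.86. Without ret/wt replicate 1 the adjusted p of Rgs5 in limma was 0.0718, with the difference at -1.55; over the alternatives on both regions it ran from 4.39e-15 to 0.108. In whole pieces of tissue, fewer cells of a type and less RNA per cell cannot be told apart.

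The promoters of both genes are shown because these are the 2 genes that passed the test. The windows are the 250 bases before the annotated start, 5′ to 3′ along the gene, from RefSeq on GRCm38.p6. For Edn1 the window is chr13:42301226-42301475 on the plus strand, and for Rgs5 it is chr1:169655251-169655500 on the plus strand.
Edn1: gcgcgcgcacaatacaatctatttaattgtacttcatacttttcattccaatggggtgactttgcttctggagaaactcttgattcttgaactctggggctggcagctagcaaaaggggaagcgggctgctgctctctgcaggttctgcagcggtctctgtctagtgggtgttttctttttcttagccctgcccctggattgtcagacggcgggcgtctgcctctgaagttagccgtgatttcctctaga
Rgs5: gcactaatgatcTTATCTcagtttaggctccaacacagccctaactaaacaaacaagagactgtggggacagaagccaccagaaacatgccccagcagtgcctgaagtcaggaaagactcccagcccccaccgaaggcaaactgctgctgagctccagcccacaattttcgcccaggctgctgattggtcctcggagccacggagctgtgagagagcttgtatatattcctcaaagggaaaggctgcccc
Capitals mark a match of AGATAA, the letters bound by GATA factors, which lies on the minus strand of the Rgs5 window, 238 bases before the start. On either strand, AGATAA was found in 7.59%, the TATA box TATAAA in 8.47% and the AP-1 motif TGANTCA in 5.63% of the 11518 tested genes with a promoter in the table. None of the 3 was found in the Edn1 window, which says only that these letters are not in those bases.

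The effect of genotype was compared between regions gene by gene, as the thalamus minus cortex difference within each animal. In limma no gene (0%) had an adjusted p under 0.05 for this difference, the smallest being 1.0, and 337 genes (2.2%) had an unadjusted p under 0.05. No other tool was run on it, and its median standard error of 0.37 leaves room for sizeable differences that would not be detected. With regions taken alone, 3 genes (0.0196%) passed in the cortex, namely Edn1, Rgs5 and Fmo2, and no gene (0%) passed in the thalamus in limma, where 569 genes (3.72%) had an unadjusted p under 0.05 and the smallest adjusted p was 0.25. The cortex count was 0 without the count filter, 0 with the replicate block, 0 without any 1 of ret/wt replicates 1 and 2 and ret/ret replicates 1, 3 and 4, 1 without ret/wt replicate 3 or ret/ret replicate 2, and 2 without ret/wt replicate 4. In both regions separately, the 4 libraries of 1 genotype lay beyond the 4 of the other in the same direction for 41 genes (0.268%), 34 of them higher (0.222%) and 7 lower (0.0458%) in ret/ret. Among the 7 lower genes, named after their values were seen, were Rgs5, Kcnj8, Cyp4f15, P2ry14, Atp9b and Hnrnpl.

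Below Edn1, the genes with the smallest p among the higher ones included Ctla2a, Fmo2 and Lpar6, none of which passed the threshold. Ctla2a (ENSMUSG00000044258) encodes a small protein related to the propeptide of cysteine proteases, and its counts are uncertain because Ctla2b is closely similar. Its averages were 1.70, 2.46, 2.74 and 2.33 log2 CPM in ret/wt and 4.51, 4.11, 3.95 and 4.04 in ret/ret replicates 1 to 4, a difference of 1.85 ± 0.24 (SE; limma adjusted p = 0.0612). The lowest ret/ret animal was more than 1 log2 unit above the highest ret/wt animal.

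Fmo2 (ENSMUSG00000040170), a flavin-containing monooxygenase, had 1.12, 1.26, 1.59 and 2.18 log2 CPM in ret/wt and 4.17, 4.23, 3.02 and 3.76 in ret/ret replicates 1 to 4. The genotypes did not overlap, and ret/ret replicate 3 was the nearest to ret/wt. The difference was 2.26 ± 0.32 (SE; limma adjusted p = 0.0779), with 2.60 in the cortex, where it passed the test on that region alone (limma adjusted p = 0.0268, a call subject to the limits of the cortex count given above), and 1.92 in the thalamus. Of the other 2 family members tested, Fmo5 had 0.75 ± 0.24 and Fmo1 0.53 ± 0.30. Lpar6 (ENSMUSG00000033446), a receptor for lysophosphatidic acid, had 1.16, 1.30, 0.90 and 1.41 log2 CPM in ret/wt and 3.16, 2.41, 2.72 and 2.95 in ret/ret replicates 1 to 4. Its genotypes were separated by about 1 log2 unit, with a difference of 1.62 ± 0.23 (SE; limma adjusted p = 0.0779).

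The ranked genes above zero went on with several of vessel endothelium. The membrane protein gene Itm2a had a difference of 1.01 ± 0.16, the TGF-beta and BMP co-receptor gene Eng 1.58 ± 0.28, the endothelial lectin gene Clec14a 2.08 ± 0.38, the C1q receptor family gene Cd93 1.01 ± 0.19 and the tetraspanin-like gene Tm4sf1 1.17 ± 0.23 (SE). Pdgfd, which encodes another ligand of PDGFRB, had 1.06 ± 0.20, and Mut, the mitochondrial methylmalonyl-CoA mutase gene, 0.72 ± 0.12. The others were the linker histone gene Hist1h1e at 1.94 ± 0.36, Tmco4 at 1.41 ± 0.27, Tmem47 at 0.65 ± 0.13 and the processed pseudogene Rpl3-ps1 at 0.87 ± 0.15, whose reads cannot be safely parted from those of its parent gene. All 11 had animal averages that did not overlap between genotypes, and their adjusted p in limma ran from 0.147 to 0.216.

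Abcc9 (ENSMUSG00000030249) encodes the sulfonylurea receptor subunit of the vascular ATP-sensitive potassium channel and followed Rgs5 in rank. Its averages were 2.68, 3.16, 2.25 and 1.94 log2 CPM in ret/wt and 0.05, 0.23, 0.47 and 0.66 in ret/ret replicates 1 to 4. All 4 ret/ret animals lay more than 1 log2 unit below the lowest ret/wt animal, and the difference was -2.16 ± 0.30 (SE; limma adjusted p = 0.0779). Kcnj8, the pore subunit of the same channel, lies beside it on chromosome 6 (142564837 to 142571614 against 142587862 to 142702315, both on the minus strand of GRCm38). It was below the level set for naming by rank and is given as a pericyte list member: 1.76, 1.20, 1.12 and 0.72 log2 CPM in ret/wt and -0.41, -1.62, -1.57 and -0.34 in ret/ret, a difference of -2.19 ± 0.40 (SE; limma adjusted p = 0.216). Both channel genes were without overlap between genotypes. Whether Kcnj8 reaches the count filter in ret/ret libraries alone was not tested.

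Other genes with negative differences at the head of the ranking were the pericyte gene Atp13a5 at -1.35 ± 0.28, the cytochrome P450 gene Cyp4f15 at -1.39 ± 0.26 and the secreted EGF repeat gene Egfl6 at -0.98 ± 0.26 (SE). Mfsd2a, the lysophospholipid transporter of the blood-brain barrier endothelium, had -0.58 ± 0.16, with 4.31, 4.20, 4.26 and 4.68 log2 CPM in ret/wt and 3.89, 3.73, 3.68 and 3.82 in ret/ret. The NMDA receptor subunit gene Grin2b had -0.61 ± 0.17, the Wnt receptor gene Fzd2 -0.78 ± 0.21 and the transporter gene Abcc5 -0.43 ± 0.12. Atp9b, Vps33b, Mbd5 and Nup133 had differences between -0.73 and -0.51. Zc3h11a (ENSMUSG00000116275) had -1.80 ± 0.33, but 2 identifiers share its symbol, and its counts are uncertain. The adjusted p of these 12 genes in limma ran from 0.211 to 0.547.

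Each of the 29 genes reported by rank had the same sign in the cortex and in the thalamus, which ranking by their average favours. Among them, Clec14a (difference of effects -0.94, unadjusted p = 0.0286) and Tmco4 (0.78, unadjusted p = 0.00903) were the only ones with an unadjusted p under 0.05 for the thalamus minus cortex effect in limma, and neither passed after adjustment.

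**Figure D2:**
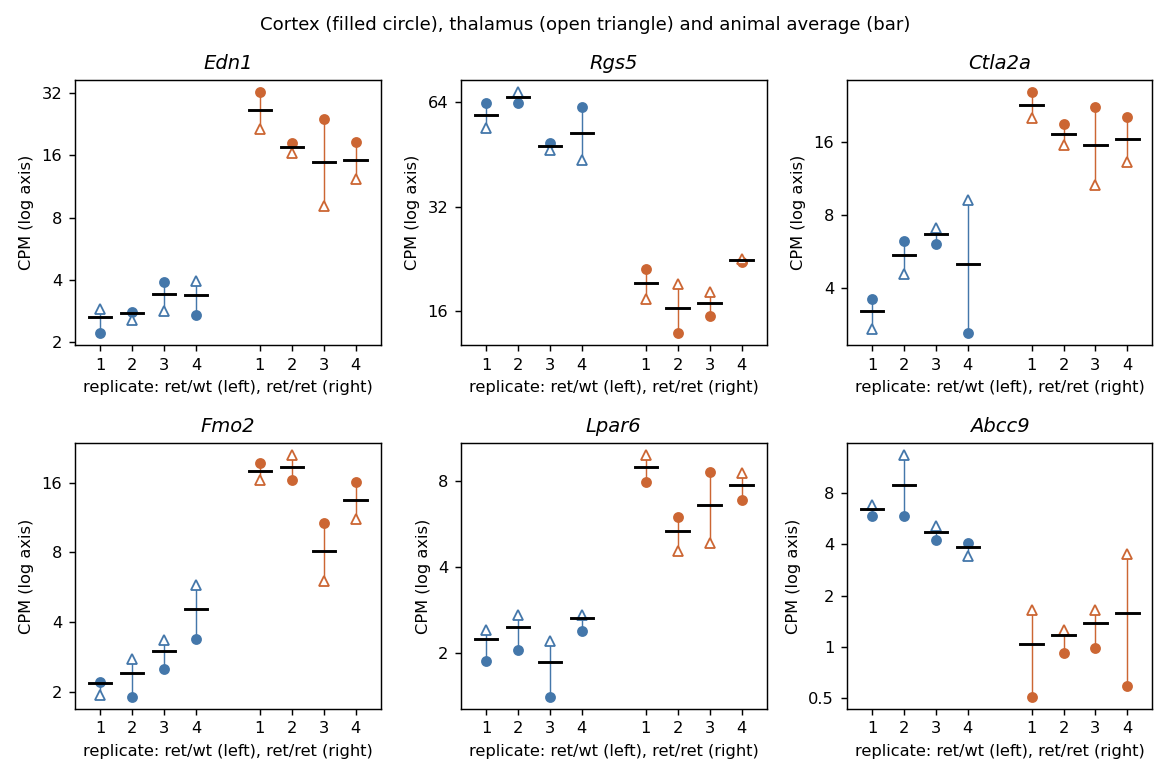
CPM on a log axis for 6 genes in every animal, ret/wt on the left and ret/ret on the right of each panel; circles are cortex, triangles thalamus and bars the animal average. The animal averages of the genotypes do not overlap in any of the 6 panels.

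**Figure D3:**
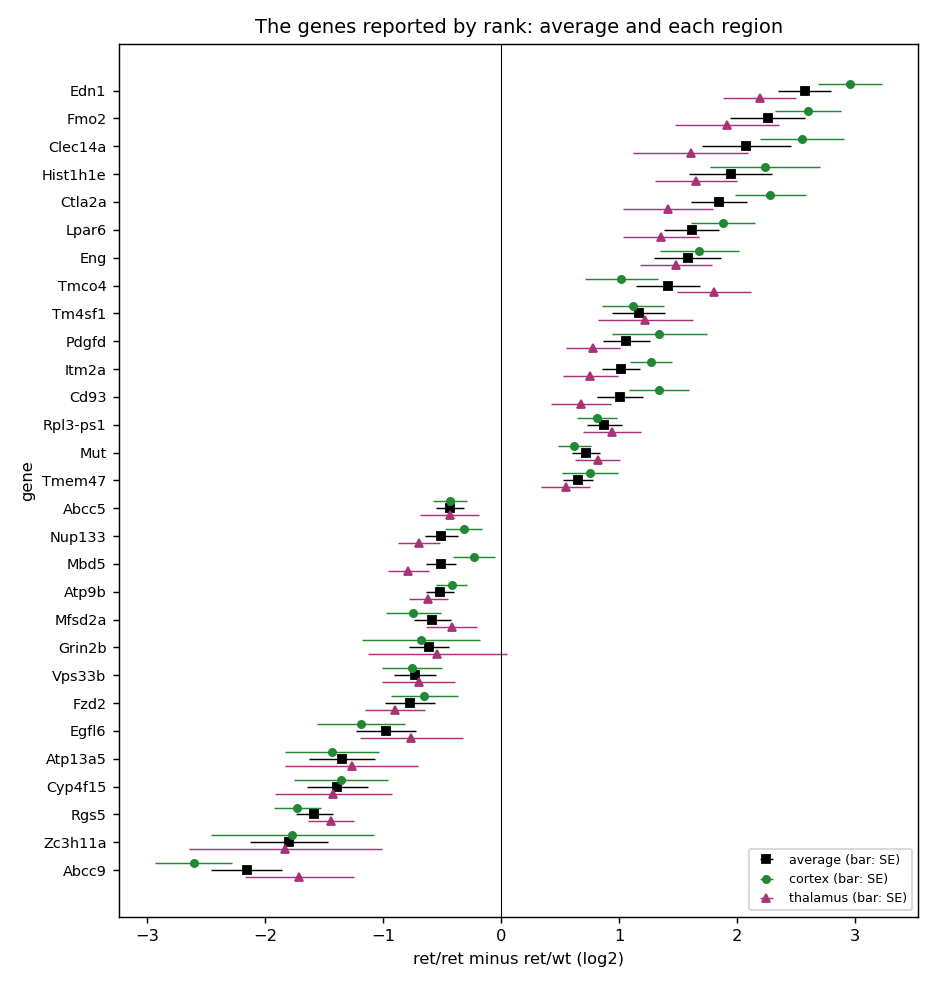
Difference between genotypes (ret/ret minus ret/wt, log2, horizontal axis) for the 29 genes reported by rank (vertical axis), with the average as squares, the cortex as circles, the thalamus as triangles and SE as bars. Each gene has the same sign in both regions, from -2.16 for Abcc9 to 2.57 for Edn1 in the average.

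Pericyte genes were mostly lower in ret/ret mice by value. Of 20 markers tested, 19 had a negative difference, 1 (Rgs5) passed the adjusted test, 8 had an unadjusted p under 0.05 and 5 did not overlap, against 1.6% of all genes below an unadjusted p of 0.05 in this direction and 1.16% without overlap. Their median difference was -0.60, against -0.02 for all genes tested, and -0.64 in the cortex and -0.72 in the thalamus. Those without overlap were Rgs5, Abcc9, Kcnj8, Atp13a5 and Higd1b, the last at -1.73 ± 0.34 (SE). The receptor gene Pdgfrb, by contrast, had 4.51, 4.20, 3.50 and 3.95 log2 CPM in ret/wt and 4.04, 3.19, 3.19 and 3.42 in ret/ret. These values overlapped, with a difference of -0.58 ± 0.26 (SE; limma adjusted p = 0.955), and Pdgfb itself was not analysed here. Cspg4, Vtn and Anpep had differences of -0.26, -0.36 and -0.41. Members of this list, these genes among them, are also expressed by other perivascular or glial cells, and the part of those cells in the values was not tested. The list level, the mean log2 CPM of its members, was 2.71, 2.63, 2.08 and 2.52 in ret/wt and 1.98, 1.72, 1.21 and 1.67 in ret/ret replicates 1 to 4, without overlap. Zic1, which is also on the cerebellum list, was at 6.73 log2 CPM in ret/wt replicate 3 and 8.06 in ret/ret replicate 2, the animals with cerebellum genes in their cortex libraries. Without both of these animals the pericyte median was -0.81, and it was -0.38 without ret/ret replicate 3.

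Smooth muscle and fibroblast genes, which mark the other cells around vessels, gave no gene with an unadjusted p under 0.05. Of 11 smooth muscle genes 5 were higher and 6 lower, with a median of -0.06 (0.23 without ret/ret replicate 3 and -0.17 without ret/ret replicate 1), and of 15 fibroblast and meningeal genes 2 were higher and 13 lower, with a median of -0.32. The fibroblast median was -0.66 without ret/ret replicate 1 and 0.07 without ret/ret replicate 3. Choroid plexus genes had a median of -0.74, and of -0.19 without ret/wt replicate 4. Their part in the pericyte values was not tested.

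Endothelial genes were mostly higher in ret/ret mice by value. Of 19 identity genes 17 had a positive difference, none passed after adjustment, 9 had an unadjusted p under 0.05 and 6 did not overlap, against 3.57% and 2.28% of all genes. Their median was 0.58. Those without overlap were Eng, the VEGF receptor gene Kdr at 1.05 ± 0.30, the adhesion receptor gene Adgrl4 at 1.29 ± 0.28, the phosphatase gene Ptprb at 0.99 ± 0.21, the receptor gene Tie1 at 0.77 ± 0.28 and the junction gene Esam at 0.61 ± 0.20 (SE). Pecam1 and Cdh5, which define endothelium, had 0.54 ± 0.25 and 0.59 ± 0.37 with overlap, while Flt1 and Ramp2 were at 0.00 and 0.01. The list level was 4.04, 3.98, 3.56 and 3.99 log2 CPM in ret/wt and 5.002, 4.24, 4.28 and 4.30 in ret/ret replicates 1 to 4. ret/ret replicate 1 was the highest animal by 0.70, and the list median was 0.31 without it.

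Among 20 genes of endothelial activation and angiogenesis, Edn1 passed, 16 had a positive difference and 6 higher ones had an unadjusted p under 0.05, against 3.57% of all genes. Of the 20, 1 did not reach the count filter in ret/wt libraries alone. Of the other 19, 15 had a positive difference and 5 higher ones an unadjusted p under 0.05 in limma. Angpt2, an antagonist ligand of the Tie2 receptor, had 1.49 ± 0.42, and Vwf, the clotting factor stored by endothelium, had 1.74 ± 0.57 (SE), both with overlap. The adhesion genes Icam1 and Vcam1 were at -0.02 and -0.10. The list median was 0.26, and 0.13 without ret/ret replicate 1. In the endothelin system, the receptor gene Ednrb had 0.53 ± 0.20 (limma adjusted p = 0.824), whereas the receptor gene Ednra had -0.18 ± 0.23 and the converting enzyme gene Ece1 0.00 ± 0.19 (SE).

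Barrier and growth factor signalling genes had smaller medians. Of 21 blood-brain barrier genes 17 had a positive and 4 a negative difference, with a median of 0.18; the amino acid transporter gene Slc38a3 had 0.59 ± 0.16, the efflux pump gene Abcg2 0.61 ± 0.18 and Mfsd2a, as above, was negative (SE). Of 26 TGF-beta and BMP genes 20 had a positive difference, with a median of 0.16; after Eng, the receptor gene Acvrl1, which pairs with Eng in endothelium, had 0.80 ± 0.23, and the BMP target gene Id3 had 1.002 ± 0.34 (SE). None of the genes of these 2 lists passed after adjustment. Of the barrier genes, 7 higher ones had an unadjusted p under 0.05 in limma and 4 higher ones did not overlap. For TGF-beta and BMP these counts were 5 and 3, against 3.57% and 2.28% of all genes. In each list 1 lower gene had an unadjusted p under 0.05 and 1 lower gene did not overlap, against 1.6% and 1.16%. The barrier median was 0.28 without ret/ret replicate 3 and 0.15 without ret/ret replicate 1. For TGF-beta and BMP the median was 0.26 without ret/wt replicate 1 and 0.13 without ret/ret replicate 2.

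**Figure D4:**
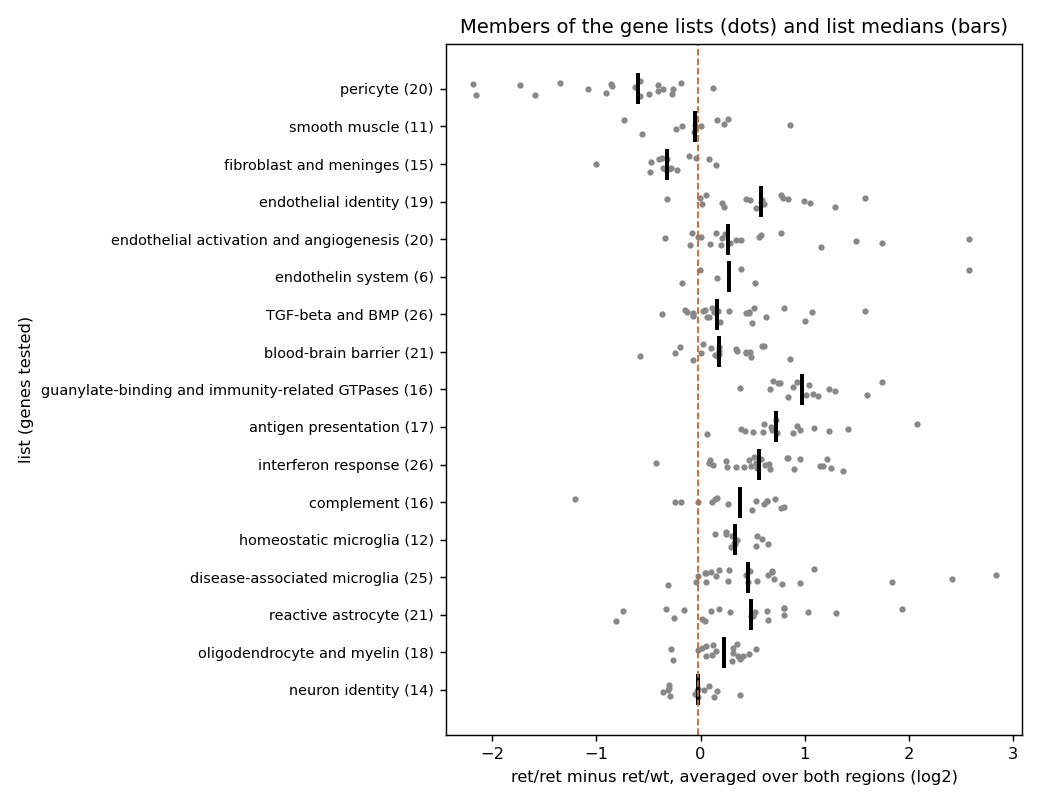
Difference between genotypes averaged over both regions (log2, horizontal axis) for the members (dots) of 17 gene lists (vertical axis, with the number tested), with list medians as bars and the median of all genes, -0.02, as a dashed line. Pericyte genes have the lowest median shown, -0.60, and guanylate-binding and immunity-related GTPase genes the highest, 0.97.

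Interferon-inducible GTPase genes, whose products act against microbes inside cells, were all above zero. Each of the 16 guanylate-binding protein and immunity-related GTPase genes had a positive difference, none passed after adjustment in limma, 14 had an unadjusted p under 0.05 and 8 did not overlap, against 3.57% and 2.28% of all genes. Their median was 0.97, with 1.08 in the cortex and 0.86 in the thalamus. Of the 16, 2 did not reach the count filter in ret/wt libraries alone, so that the filter favours a positive sign. Over the other 14 the median was also 0.97, and 13 had an unadjusted p under 0.05 in limma. The count without overlap is over all 16 genes, including those that the filter favours. Gbp6 had 1.29 ± 0.29, Iigp1 1.59 ± 0.37 and Gbp2 1.08 ± 0.27 (SE). Members such as Tgtp1 and Tgtp2 are near copies of each other, so single values are uncertain. The list level was 1.61, 1.81, 1.20 and 1.26 log2 CPM in ret/wt and 3.17, 2.26, 2.03 and 2.43 in ret/ret replicates 1 to 4. All ret/ret animals were above all ret/wt animals, with replicate 1 the highest, and the median was 0.80 without it.

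All 17 antigen presentation genes also had a positive difference, with a median of 0.72, and 10 had an unadjusted p under 0.05, against 3.57% of all genes. B2m, the light chain of MHC class I, had 5.96, 6.10, 6.04 and 5.85 log2 CPM in ret/wt and 7.03, 6.53, 6.52 and 6.62 in ret/ret. The genotypes did not overlap, and the difference was 0.68 ± 0.14 (SE; limma adjusted p = 0.242), with 0.68 in the cortex and 0.69 in the thalamus. The class I genes H2-Q7 and H2-Q4 had 2.07 ± 0.44 and 1.08 ± 0.24 (SE), uncertain among similar class I genes, and the class II genes H2-Aa, H2-Ab1 and H2-Eb1 had 0.50, 0.67 and 0.39 with overlap. Of 26 other interferon response genes 25 had a positive difference, with a median of 0.56 and 6 unadjusted p-values under 0.05, against the same 3.57%. Of the 26, 2 did not reach the count filter in ret/wt libraries alone, so that the filter favours a positive sign. Of the other 24, 23 had a positive difference and 5 higher ones an unadjusted p under 0.05 in limma, with a median of 0.54. Ifit3 had 1.17 ± 0.27 and Usp18 1.36 ± 0.47 (SE). The level of this list was 3.07 log2 CPM in ret/ret replicate 1, between 1.76 and 2.15 in the other ret/ret animals and between 1.49 and 1.72 in ret/wt, and the median without replicate 1 was 0.35.

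**Figure D5:**
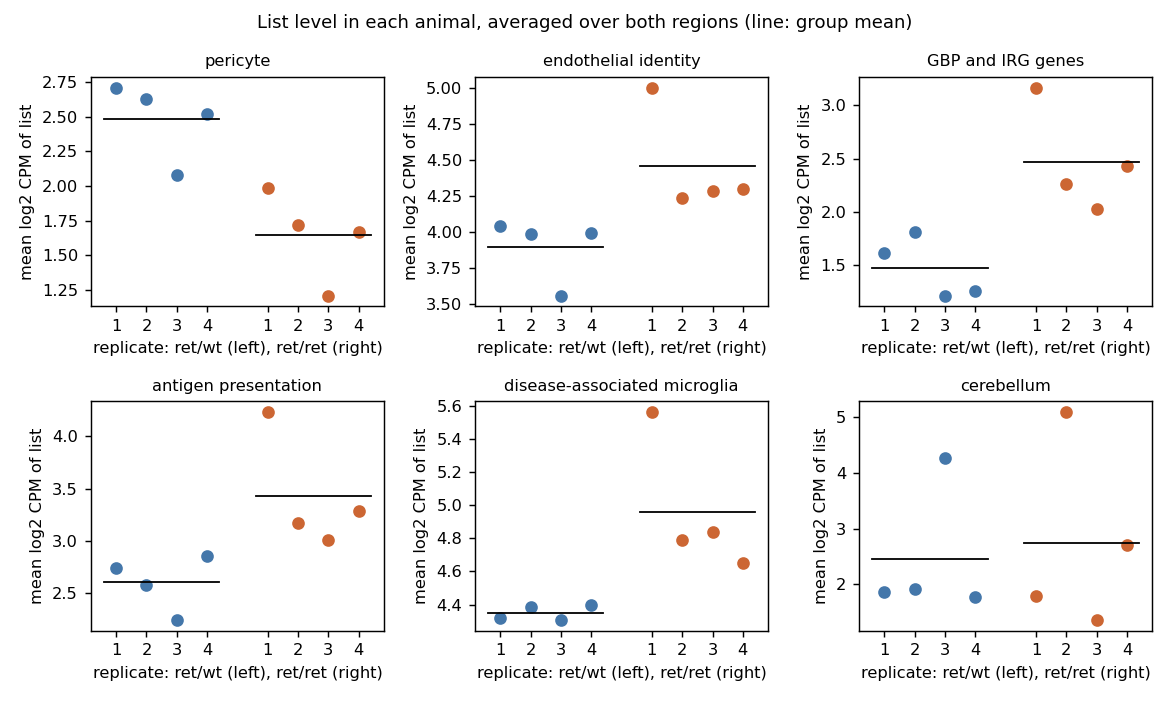
Mean log2 CPM of the tested members of 6 gene lists in each animal (vertical axis), averaged over both regions, with ret/wt replicates on the left, ret/ret on the right and group means as lines. ret/ret replicate 1 is the highest animal in the endothelial, GTPase, antigen presentation and microglia panels, and ret/wt replicate 3 and ret/ret replicate 2 are the highest in the cerebellum panel.

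Interferon-stimulated genes are known for a promoter element that STAT and IRF factors bind, and 3 promoters are shown because most members of these lists had positive differences. The windows are the 250 bases before the start, 5′ to 3′ along the gene, from RefSeq on GRCm38.p6, at chr19:34583279-34583528 on the plus strand for Ifit3, chr3:142620413-142620662 on the plus strand for Gbp2 and chr5:92348890-92349139 on the minus strand for Cxcl10, a chemokine gene.
Ifit3: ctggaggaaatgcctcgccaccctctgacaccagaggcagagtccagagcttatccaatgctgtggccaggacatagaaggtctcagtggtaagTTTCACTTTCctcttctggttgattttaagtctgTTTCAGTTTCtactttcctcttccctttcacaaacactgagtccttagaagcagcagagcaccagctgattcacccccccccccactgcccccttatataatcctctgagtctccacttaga
Gbp2: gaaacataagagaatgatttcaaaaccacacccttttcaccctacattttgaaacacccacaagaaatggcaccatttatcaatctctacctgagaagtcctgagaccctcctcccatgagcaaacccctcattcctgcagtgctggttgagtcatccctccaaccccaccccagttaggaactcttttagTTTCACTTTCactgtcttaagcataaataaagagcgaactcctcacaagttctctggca
Cxcl10: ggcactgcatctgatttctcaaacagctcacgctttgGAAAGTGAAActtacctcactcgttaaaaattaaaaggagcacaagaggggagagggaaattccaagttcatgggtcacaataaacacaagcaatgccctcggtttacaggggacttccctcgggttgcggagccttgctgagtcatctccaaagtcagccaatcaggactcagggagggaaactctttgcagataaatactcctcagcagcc
Capitals mark matches, on either strand, of the interferon-stimulated response element, searched as GAAA followed by any 2 bases and GAAA again, 2 in the Ifit3 window and 1 in each of the others. A match was found for 9 of the 10 GTPase genes with a promoter in the table (90%), 8 of 17 interferon response genes (47.1%) and 2 of 13 antigen presentation genes (15.4%), against 370 of the 11518 tested genes with a promoter (3.21%). A match describes the letters and shows no binding. Cxcl10 had -1.79, -1.94, -1.96 and -2.16 log2 CPM in ret/wt and 1.74, 0.28, -1.07 and -1.07 in ret/ret replicates 1 to 4. The genotypes did not overlap, though replicates 3 and 4 lay near ret/wt, and the difference was 1.93 ± 0.60 (SE; limma adjusted p = 0.612). No ret/wt library held more than 5 counts of Cxcl10, which passed the count filter through ret/ret libraries, so its sign follows from the filter and its fitted difference depends on the prior count.

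Microglia genes, which the series title puts at its centre, had positive medians, larger by value in the thalamus than in the cortex. All 12 homeostatic genes had a positive difference, with a median of 0.33 in the average, 0.05 in the cortex and 0.63 in the thalamus. Of 25 genes of disease-associated microglia 22 had a positive difference, with a median of 0.46 in the average, 0.11 in the cortex and 0.69 in the thalamus, 10 unadjusted p-values under 0.05 and 7 genes without overlap, against 3.57% and 2.28% of all genes. Of these 25 genes, 3 did not reach the count filter in ret/wt libraries alone, so that the filter favours a positive sign. Of the other 22, 19 had a positive difference and 7 higher ones an unadjusted p under 0.05 in limma, with a median of 0.35. The count without overlap is over all 25 genes. The homeostatic median was 0.50 without ret/ret replicate 2 and 0.22 without ret/ret replicate 1, and the disease-associated median 0.28 without ret/ret replicate 1. The lipid-sensing receptor gene Trem2 had 2.95, 3.07, 2.60 and 3.19 log2 CPM in ret/wt and 4.07, 3.03, 3.58 and 3.31 in ret/ret replicates 1 to 4. Its genotypes overlapped, and the averaged difference was 0.55 ± 0.24 (SE; limma adjusted p = 0.953), with 0.11 in the cortex and 0.98 in the thalamus; these effects differed by 0.88 with a 95% interval from -0.03 to 1.79.

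For 2 genes of this list, picked after their values were seen, the regions had unlike values, though neither difference between regions passed after adjustment. Cst7, a cysteine protease inhibitor gene, had an averaged difference of 2.41, made of -0.06 in the cortex and 4.89 in the thalamus, and these effects differed by 4.95 (limma unadjusted p = 6.77e-05, adjusted p = 1.0). Its ret/wt libraries held no more than 6 counts each, so it passed the count filter through ret/ret libraries. The sign of its averaged difference therefore follows from the filter, and its fitted size depends on the prior count. With the cortex at -0.06, the filter also favours the sign of its difference between regions. Lpl, the lipoprotein lipase gene, had an averaged difference of 0.15 ± 0.27 (SE), made of -1.33 in the cortex and 1.63 in the thalamus, and these differed by 2.96 (limma unadjusted p = 0.00038, adjusted p = 1.0). Itgax, with no more than 3 counts in a ret/wt library, had an averaged difference of 2.84. Its sign too follows from the filter, and its size depends on the prior count.

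Complement genes had a median of 0.38, with the C1q chain genes C1qa, C1qb and C1qc at 0.72, 0.61 and 0.64, and C1s1 at -1.20 ± 0.42 (SE). Reactive astrocyte genes had a median of 0.49, with 0.15 in the cortex and 0.26 in the thalamus; 3 of the 21 did not reach the count filter in ret/wt libraries alone, and over the other 18 the median was 0.39. Gfap, the astrocyte filament gene, had 7.15, 7.73, 6.46 and 7.95 log2 CPM in ret/wt and 9.66, 7.44, 7.81 and 8.51 in ret/ret. These overlapped, with a difference of 1.03 ± 0.46 (SE; limma adjusted p = 0.953). Without ret/ret replicate 1 the complement and reactive astrocyte medians were 0.24 and 0.21. Oligodendrocyte genes had a median of 0.23, and 0.07 without ret/wt replicate 4, and neuron identity genes had one of -0.03.

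Bone and phosphate genes had medians near that of all genes. Of 21 bone and osteoclast genes 10 had a positive and 11 a negative difference, with a median of -0.07. That median was -0.185 without ret/wt replicate 4 and 0.05 without ret/ret replicate 3. Of the 21, 3 did not reach the count filter in ret/wt libraries alone, and the median of the other 18 was -0.148. Of 11 phosphate and pyrophosphate genes 6 were positive, with a median of 0.08. This one was -0.07 without ret/wt replicate 4 and 0.16 without ret/wt replicate 1. Alpl, the tissue-nonspecific alkaline phosphatase gene, which is on both lists and is also expressed in brain vessels, had -0.92 ± 0.30 (SE; limma adjusted p = 0.692). Of the 5 tested genes known from inherited human brain calcification, Jam2 had 0.43 ± 0.16, Slc20a2 0.28 ± 0.25 and Xpr1 -0.08 ± 0.14 (SE), beside Pdgfrb and Isg15. The median of these 5 was 0.28, and 0.03 without ret/ret replicate 2; Jam2 was higher and Pdgfrb lower at an unadjusted p under 0.05.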

How the data were processed

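Libraries of polyA-selected RNA from cortex and thalamus of 8 mice were analysed, 4 animals per genotype. The deposited values are expected counts (estimated reads per Ensembl gene, not whole numbers) that the authors made with kallisto 0.44.0 on GRCm38.p6, per the submitters' processing notes. The annotation behind them is not given in the sources used here. Of 21804 identifiers, 21581 (99%) matched GENCODE M21, which gave symbols and coordinates. Counts were rounded, filtered with filterByExpr in edgeR 4.0.16 (minimum count 10, minimum total 15), scaled by TMM over 16 libraries and turned to log2 CPM with a prior count of 2. Averages per animal were compared in limma 3.58.1 (R 4.3.3; empirical Bayes with trend, two-sided, Benjamini-Hochberg at 0.05 over all genes); averages were used so that the animal is the unit. edgeR's quasi-likelihood test and DESeq2 1.42.0 on counts summed per animal were alternatives. Differences on this scale understate those of genes near the prior count.

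Members and lists (36 lists, 521 genes, 472 tested, 15 not analysed here) were chosen with earlier results of these data known. The rule named in each direction the genes that passed, then the smallest p-values at a mean log2 CPM of at least 1 up to 15, Trem2, Pdgfb and Pdgfrb, and members of lists; further list members were named after their values were seen, for their known roles. A few genes are not reported here. The scripts were tested on simulated data. Intervals are at 95%, and floors cover counting error only.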

Additional observations from a re-analysis of the deposited data

Results flagged for a closer look

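Among 308 groups of 4 animals examined (154 genes and list levels in both genotypes), 27 had 1 animal far from the other 3. A rate of 1 in 20 would give about 15. The groups are not independent, since list levels stand beside their own members, so no excess over chance can be read from the count. ret/wt replicate 3 was the animal apart for the low values of Clec14a (1.25 log2 CPM), Tie1 (2.43), Gbp2 (1.79), the endothelial identity level (3.56) and the homeostatic microglia level (4.38), and for the high values of Col18a1 (4.01), the cerebellum level (4.27), Kdm5d (5.06), Uty (2.86), Eif2s3y (4.82) and the Y-linked level (4.67).

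ret/ret replicate 1 was the highest of its group for Cd93 (4.53 log2 CPM), Tie1 (4.52), Ifit3b (5.07), Isg15 (2.47), the haemoglobin gene Hba-a2 (3.19) and the endothelial identity level (5.002). ret/ret replicate 2 was apart for Rgs16 (5.73), Ldha (7.78, the lowest), Kdm5d (5.28), Uty (3.33), Eif2s3y (5.29) and the Y-linked level (4.99).

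ret/ret replicate 3 was the lowest of its group for Cbr2 (-0.26 log2 CPM) and Kcnj13 (-2.29). ret/wt replicate 4 was the highest for Mbd5 (6.47) and Enpp2 (8.74). Neither Edn1 nor Rgs5 had an animal apart in either genotype.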

How the results depend on the processing

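Against 2 genes called in the averaged comparison, 79 were called by DESeq2 on summed counts (70 higher, 9 lower), 34 by edgeR on 16 libraries with animals not modelled, 27 by limma and 18 by limma-voom with the animal as a random block, 6 with Y-linked reads as a term, 6 at an adjusted p under 0.1, 5 without the empirical Bayes trend, 0 in the thalamus alone and 0 with the replicate block; leaving out single animals gave 1 (without ret/wt replicate 1) to 5 (without ret/wt replicate 3). edgeR's quasi-likelihood test on summed counts called 2, the same genes. The cause of these differences was not tested. With the replicate block the adjusted p of both Edn1 and Rgs5 in limma was 0.108. Same-numbered animals were different mice, and their residuals correlated at -0.13 to 0.13 with only number 4 matching itself best. Such correlations cannot tell whether the number marks mice handled together, so the result with the block stands as a limit. In 25 alternatives on both regions Edn1 passed in 24 and Rgs5 in 23; Ctla2a followed with 7. Neither Edn1 nor Rgs5 changed direction, whereas several list medians did without single animals. These were the smooth muscle, fibroblast, basement membrane, border-associated macrophage, ependyma and cerebellum lists. The neuron identity, thalamus neuron, cortex neuron, bone, phosphate and Y-linked lists did so too. The difference between regions stayed at 0 calls except for 1 without ret/ret replicate 4 (range 0 to 1). The alternatives on single regions were chosen after seeing the data: against 3 in the cortex there were 0 without a filter, 0 with the replicate block, 0 at an adjusted p under 0.01, 8 under 0.1 and 0 to 2 without single animals; the thalamus stayed at 0. With 4 animals per genotype and a median SE of 0.21, small differences were not detectable.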

Other observations

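Replication-dependent histone genes, grouped after their values were seen, had positive differences in the average. Of 58 genes with symbols starting in Hist, 18 were tested; 17 had a positive difference, none passed after adjustment in limma, 14 higher ones had an unadjusted p under 0.05 and 10 did not overlap between genotypes, against 3.57% and 2.28% of all genes. Of the 18, 4 did not reach the count filter in ret/wt libraries alone, so that the filter favours a positive sign. Of the other 14, 13 had a positive difference and 10 higher ones an unadjusted p under 0.05 in limma, with a median of 1.32. The count without overlap is over all 18 genes, including those that the filter favours. The median of all 18 was 1.38, with 1.33 in the cortex and 1.36 in the thalamus, and 1.16 to 1.63 when single animals were left out. The counts and the median describe the tested genes alone and support nothing about the family. Most of their transcripts are known to lack a polyA tail, the RNA was polyA-selected, and near-identical copies make single values uncertain.

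Genes with the 4 libraries of each genotype apart in both regions, again named after their values were seen, included the purinergic receptor gene P2ry14 at -1.86 ± 0.37, the alcohol dehydrogenase gene Adh1 at 2.73 ± 0.52, the cadherin gene Cdh26 at 3.13 ± 0.53 and the ferroxidase gene Heph at 0.65 ± 0.16 (log2, SE). Their adjusted p in limma ran from 0.178 to 0.395. In replicate order, the ret/wt averages were -0.23, -2.14, -1.58 and 0.18 log2 CPM for Adh1 and -1.28, 0.57, -1.74 and -1.94 for Cdh26. Those of P2ry14 in ret/ret were -0.74, -0.87, -0.56 and -1.47 log2 CPM. At such low levels the fitted differences of Adh1, Cdh26 and P2ry14 depend on the prior count. Whether Adh1 and Cdh26 reach the count filter in ret/wt libraries alone, or P2ry14 in ret/ret libraries alone, was not tested. Immediate early genes had a median of -0.44 (-0.19 without ret/wt replicate 2 and -0.66 without ret/wt replicate 4), with -0.69 in the cortex and 0.01 in the thalamus, and Egr4 and Fosb at -1.05 ± 0.36 and -0.88 ± 0.31 (SE). Hmox1, the haem oxygenase gene, had 1.15 ± 0.28 (SE), without overlap between genotypes.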
